A study of Mus musculus with 2 samples.

Results

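Nuclear hormone receptors are transcription factors that a small lipid-like ligand switches on or off, and in macrophages they tie lipid handling, vitamins and steroid hormones to the control of inflammation. Described here are 8 receptor genes and the corepressor gene Ncor1, 9 genes in all, in bone-marrow-derived macrophages with and without lipopolysaccharide (LPS), the cell wall component of Gram-negative bacteria that Toll-like receptor 4 senses. The members were a fixed list of names, and their probe sets were all those that the annotation of the Affymetrix Mouse Genome 430 2.0 array gives to exactly 1 gene, that gene being on the list. By this rule 7 of the 9 genes had a probe set, 16 probe sets in all, out of 18193 genes and 45037 probe sets on the array without its control features. Nr1h2 and Ncor1 were without such a probe set in the annotation used, and their expression is not analysed here. A single further probe set is assigned to Ppard together with a second gene, and it was left out.

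The cells came from bone marrow of C57BL6 mice and were grown in RPMI with fetal bovine serum and M-CSF, the cytokine that turns marrow precursors into macrophages. The control array holds RNA of untreated cells and the LPS array RNA of treated cells. No knockout, transgene or further agent is named, and the sources used here give no dose, duration, age or sex. With 1 array per condition there is no replicate, no error and no test, so every difference below compares these 2 arrays and has no replicate check, and the precision of each value is limited by how few arrays there are. In bulk RNA, fewer cells of a type and less RNA per cell cannot be told apart.

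Retinoid X receptor alpha (RXR alpha, from Rxra) is the common partner: it forms pairs with the peroxisome proliferator-activated receptors (PPAR gamma and delta, from Pparg and Ppard), the retinoic acid receptor (Rara), the vitamin D receptor (Vdr) and the liver X receptors (LXR alpha and beta, from Nr1h3 and Nr1h2). PPARs sense fatty acids, LXRs sense oxysterols, and both control lipid uptake, storage and efflux in macrophages. The glucocorticoid receptor (Nr3c1) mostly pairs with itself and is the target of the anti-inflammatory steroids. NCoR1 (Ncor1) is a scaffold that brings histone deacetylase to several of these receptors when they carry no activating ligand.

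Receptors that pair with RXR read the half-site AGGTCA, so the start regions of the receptor genes themselves were searched for it. RefSeq windows of build GRCm38.p6 ran from 250 bases before to 50 bases after each annotated start. For 8 of the 9 genes, 16 windows were searched. The search of the member genes left out 1 chromosome, and no Nr3c1 window was searched. Shares over all windows were taken without that limit. The windows were Pparg, Rara (several starts each), Rxra, Nr1h3 and Ncor1 (a pair each), and Ppard, Vdr and Nr1h2 (1 each). Those of Pparg, Rxra and Rara that hold AGGTCA on either strand are given here 5′ to 3′ on the strand of the gene. Capitals mark the half-site, written TGACCT where it lies on the opposite strand.

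Pparg, chr6:115360894-115361193, plus strand: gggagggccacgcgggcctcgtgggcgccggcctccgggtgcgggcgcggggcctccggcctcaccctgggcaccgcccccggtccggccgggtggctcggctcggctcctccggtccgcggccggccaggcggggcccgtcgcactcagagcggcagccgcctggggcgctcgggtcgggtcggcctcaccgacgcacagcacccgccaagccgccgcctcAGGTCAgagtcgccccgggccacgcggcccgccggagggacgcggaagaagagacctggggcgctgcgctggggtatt
Pparg, chr6:115362099-115362398, plus strand: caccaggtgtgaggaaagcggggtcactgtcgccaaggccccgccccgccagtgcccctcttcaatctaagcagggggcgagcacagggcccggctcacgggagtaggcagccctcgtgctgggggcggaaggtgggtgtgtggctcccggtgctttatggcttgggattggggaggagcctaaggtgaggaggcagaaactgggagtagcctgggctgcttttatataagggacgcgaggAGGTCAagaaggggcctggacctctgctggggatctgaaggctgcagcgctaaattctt
Rxra, chr2:27709042-27709341, plus strand: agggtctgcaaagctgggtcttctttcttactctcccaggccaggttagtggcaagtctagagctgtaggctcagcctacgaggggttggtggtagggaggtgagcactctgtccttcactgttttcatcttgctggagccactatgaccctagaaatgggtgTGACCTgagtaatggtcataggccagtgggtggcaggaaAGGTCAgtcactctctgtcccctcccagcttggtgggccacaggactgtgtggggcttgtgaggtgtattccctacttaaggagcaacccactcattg
Rara, chr11:98964622-98964921, plus strand: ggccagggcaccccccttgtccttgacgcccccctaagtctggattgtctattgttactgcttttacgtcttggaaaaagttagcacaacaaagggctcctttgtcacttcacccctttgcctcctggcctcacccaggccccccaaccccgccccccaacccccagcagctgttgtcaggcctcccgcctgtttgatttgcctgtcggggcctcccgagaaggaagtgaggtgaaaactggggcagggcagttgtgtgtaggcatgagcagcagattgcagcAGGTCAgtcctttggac

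AGGTCA lay in 4 of the 16 windows of 3 of the 8 genes, and in 16.3% of all 32851 windows in the table. In Pparg its first base was 28 bases upstream of the start in one window and 9 bases upstream in the other. The downstream Rxra window held it on both strands, 87 and 48 bases upstream of the start, and the last Rara window 33 bases downstream of the start. The core GAGGAA of the macrophage factor PU.1 was in 3 of the 16 windows (of Pparg, Ppard and Nr1h3) and in 28.3% of all, and the AP-1 string TGANTCA in 0 of the 16 and in 7.81% of all. The GC box string GGGCGG was in 9 of the 16 windows and in 35.7% of all. The windows are not all separate sequences. A pair of Rara windows, both with this string, overlap over most of their length, and so do the Nr1h3 windows, which lack it. A match within an overlap is counted in both windows. Each string was searched on both strands, no string is part of another, a match is a description of letters only, and no binding was measured.

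Signals are the deposited MAS5 values on a linear scale, in arbitrary units. Each array's own median over its probe sets served as a floor, 35.1 for the control and 26.7 for the LPS array. A lower signal was raised to that floor before taking a ratio, and a fold of 2 or more reached this way is a lower bound. Because the floors differ, smaller ratios can change sign. The orphan receptor gene Hnf4a, for example, read 18.8 and 31.3 but had a log2 ratio of -0.16. Such genes enter the list medians and the shares of negative ratios below. Of the 16 probe sets of the receptor genes, 11 reached the floor on at least 1 array and 5 were under it on both. For a gene with several probe sets, the one with the highest mean log2 signal stands for the gene. Signals of different probe sets are not comparable as levels, so receptors are compared by their ratios and not by their signals. Of the 9 genes, 6 were measured, 5 of them with both signals at their floors or brighter.

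Among the 6 measured receptor genes, 3 had LPS signals at least 2-fold lower (Pparg, Ppard and Rara), 0 were at least 2-fold higher, and 3 lay within 2-fold (Rxra, Nr1h3 and Nr3c1). Over all 11722 measured genes, 26.2% were at least 2-fold lower and 8.22% at least 2-fold higher. So few genes give no basis for setting their share apart from this background. A positive ratio was found for 2 of the 6 and for 28.9% of all measured genes. The median log2 ratio (LPS over control) was -0.93 over the 6 genes and -0.42 over all measured genes. The latter is a shift toward lower LPS signals whose size differed with brightness. Genes with a mean log2 signal within 0.5 of Ppard had a median ratio of -0.83, and those near Nr3c1 had -0.21. A single centring value therefore does not remove the shift evenly. After centring the ratios of all genes on their median, 2 receptor genes were at least 2-fold lower (Pparg and Ppard; 15.3% of all measured genes) and 1 was at least 2-fold higher (Nr1h3; 13.1% of all), with a median of -0.51.

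**Figure D1:**
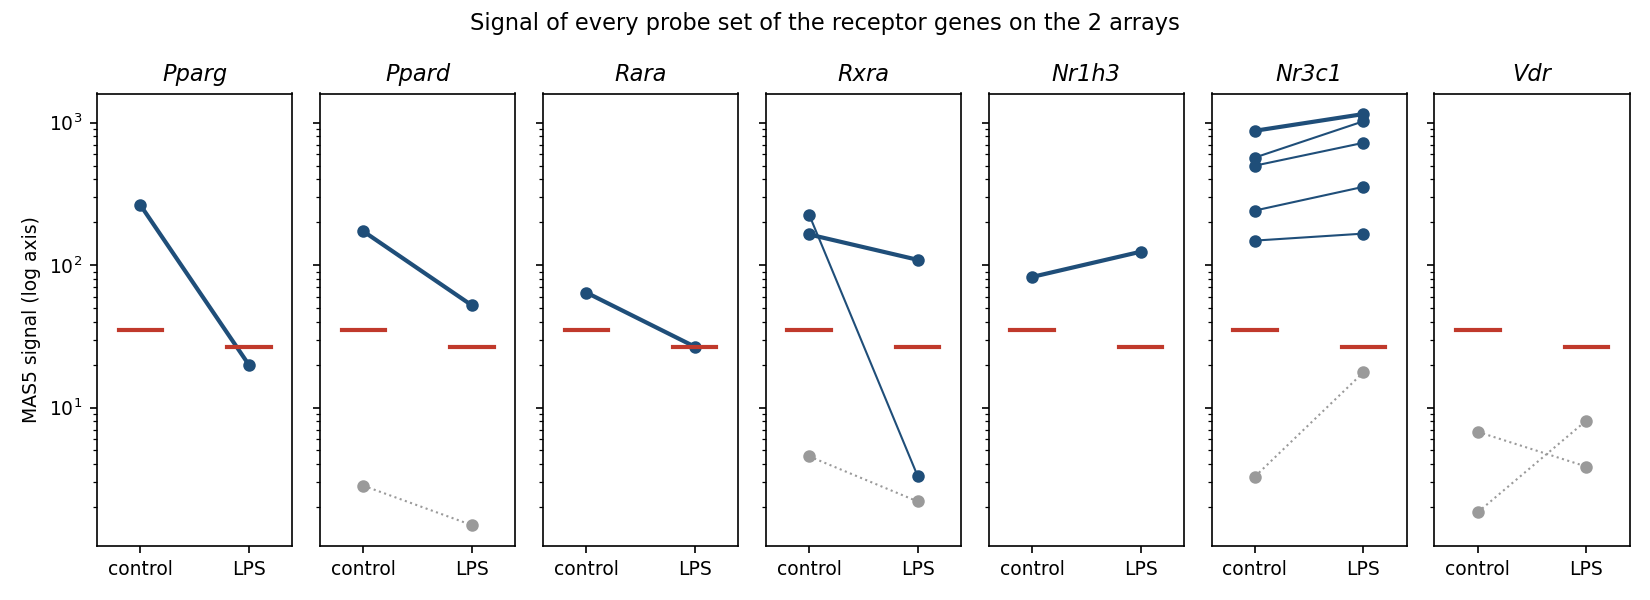
MAS5 signal (log axis) of each of the 16 probe sets of 7 receptor genes on the control and the LPS array, with 1 line per probe set, the thicker line being the probe set that stands for the gene. Red marks are the floors (35.1 and 26.7), and grey dotted lines are probe sets under the floor on both arrays. Pparg is under the floor on the LPS array, Rxra has diverging probe sets, and all 5 measured Nr3c1 probe sets are higher on the LPS array.

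Both PPAR genes were lower on the LPS array. Pparg, which encodes the fatty acid receptor of macrophages and adipocytes, was read by a single probe set (1420715_a_at) which read 264 in control cells and 19.9, under the floor, in LPS-treated cells. The LPS signal was thus at least 9.89-fold lower, a log2 ratio of -3.31, and of the 11722 measured genes 136 (1.16%) had a ratio as low or lower. Without the floor the same signals differed by -3.73 on the log2 scale. Genes of similar brightness (mean log2 signal within 0.5, 1674 genes) had a median ratio of -0.81, so Pparg stood below the median of genes of its own brightness too.

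Ppard, the more widely expressed PPAR, went from 173 to 52.2 with LPS by its measured probe set (1439797_at), a 3.31-fold lower signal. Its other probe set had signals of 2.83 and 1.49, under the floor on both arrays, and gives no ratio. The log2 ratio of -1.73 was matched or exceeded on the lower side by 10.3% of the measured genes. It was -1.31 after median centring and -1.01 after loess, the smallest difference among the scalings and still past 2-fold. The 1721 genes of similar brightness had a median log2 ratio of -0.83, so most of them were lower on the LPS array too.

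The retinoid receptors were less clear. Rara, which encodes retinoic acid receptor alpha, was read by a single probe set (1450180_a_at) at 64.2 without and 26.74 with LPS, the latter just above its array's floor of 26.68. The signal was thus 2.40-fold lower, a log2 ratio of -1.26. Median centring brought it to -0.84 and the poly-A controls, used as a scale, to -0.97, within 2-fold in both cases. The 2642 genes of similar brightness had a median log2 ratio of -0.34. The sign of the Rara ratio was the same in all 11 alternatives that gave it a value. The rules for choosing among probe sets could not change the ratio of a gene with 1 probe set, so their agreement adds nothing.

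The probe sets of Rxra, the partner gene, disagreed. The one that stands for the gene (1425762_a_at) read 164 and 109, a log2 ratio of -0.59, which came to -0.01 after quantile normalization and turned to 0.08 after loess. The 1833 genes of similar brightness had a median log2 ratio of -0.77, so this probe set lay above their median as deposited. A second probe set (1454773_at) went from the higher control signal of 226 to only 3.30 with LPS, at least 8.48-fold lower. The remaining one (1430497_at) was under the floor on both arrays, with 4.54 and 2.19. The choice of probe set therefore decides whether Rxra is counted as lower: by the probe set with the highest control signal, 4 of the 6 measured receptor genes were at least 2-fold lower in place of 3. Which transcript parts these probe sets read was not analysed here, and the cause of the disagreement was not tested.

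Nr1h3, which encodes LXR alpha, the oxysterol receptor that macrophages use to turn on cholesterol efflux, was higher on the LPS array. Its only probe set (1450444_a_at) read 82.5 without and 124 with LPS, a log2 ratio of 0.59. The 1746 genes of similar brightness had a median log2 ratio of -0.83, and the ratio of Nr1h3 was 1.01 after median centring, 1.16 after quantile normalization and 1.30 after loess, past 2-fold in each. With the hybridization controls as scale it was 0.64 and with the poly-A controls 0.88, both within 2-fold. Of all measured genes, 12.9% had a ratio as high or higher.

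Nr3c1, which encodes the glucocorticoid receptor, was read by more probe sets than any of the other receptor genes. As deposited it was modestly higher on the LPS array by each one that was measured. The signals on the control and the LPS array were 877 and 1150 for the probe set that stands for the gene (1460303_at), a 1.31-fold difference. They were 569 and 1023 for 1421867_at, 1.80-fold apart, and 499 and 722 for 1457635_s_at, 1.45-fold apart. The remaining measured ones read 242 and 355 (1453860_s_at, 1.47-fold) and 149 and 166 (1421866_at, 1.12-fold). A sixth (1431378_at) stayed under the floor on both arrays, with 3.27 and 17.7. The log2 ratios of the 5 had a mean of 0.50 ± 0.25 (SD over 5 probe sets of the same 2 RNA samples, which are not replicates). The 1218 genes with a brightness like that of 1460303_at had a median log2 ratio of -0.21. Among 297 genes with 5 or more probe sets that reached both floors, 15.2% had a positive ratio in all of them and 39.7% a negative ratio in all. Over the scalings, the log2 ratio of 1460303_at ran from 0.44 to 0.81, within 2-fold. The highest values were 1.27 for 1421867_at and 1.08 for 1453860_s_at, past 2-fold, and the other measured probe sets stayed within 2-fold.

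Vdr, which encodes the vitamin D receptor, was not measurable on these arrays. Its 2 probe sets had control signals of 6.75 (1418176_at) and 1.84 (1418175_at) and LPS signals of 3.85 and 8.10, all under the floors, and they moved in opposite directions. No fold is given for it. A signal under the floor does not show that the gene is off.

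**Figure D2:**
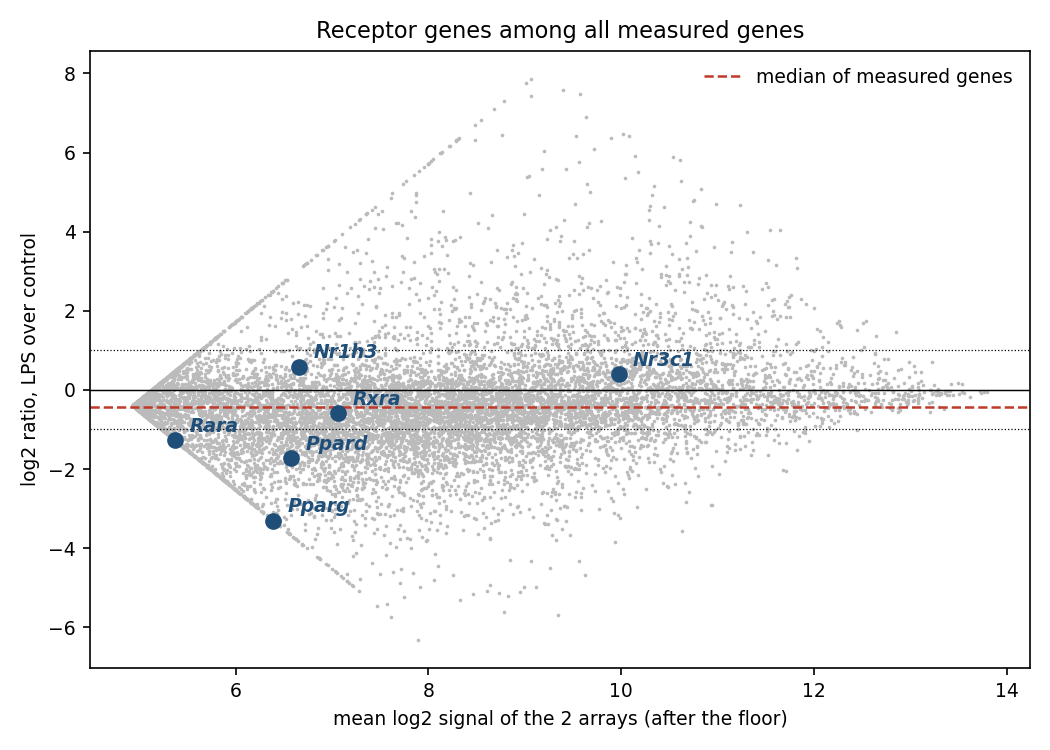
Log2 ratio (LPS over control) against mean log2 signal after the floor for all 11722 measured genes (grey), with the 6 measured receptor genes in blue. The dashed line is the median of all genes at -0.42 and dotted lines mark 2-fold. The straight lower and upper edges are genes whose signal on 1 array was set to the floor, Pparg among them, and Rara lies beside that edge because its LPS signal is just above the floor.

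In order of their ratios the receptor genes ran from Pparg (-3.31) over Ppard (-1.73), Rara (-1.26) and Rxra (-0.59) to Nr3c1 (0.39) and Nr1h3 (0.59). Without replicates it cannot be said which neighbours in this order differ. As a technical gauge, the ratios of probe sets of 1 gene had a median SD of 0.28 over 4494 genes, and the gaps between Nr3c1 and Nr1h3 (a difference of 0.20) and the spread of the Nr3c1 probe sets are of that size. By the smallest distance between pairs of log2 signals over these 2 arrays, the genes most like Pparg were Plekhg3 (259 and 19.9), Fbxo21 (258 and 21.4) and Pank1 (239 and 18.2). Those most like Nr1h3 were Zfp821 (83.2 and 127), Slc7a5 (77.5 and 123) and 4833438C02Rik (83.3 and 116). With 2 arrays such a likeness rests on 2 values.

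**Figure D3:**
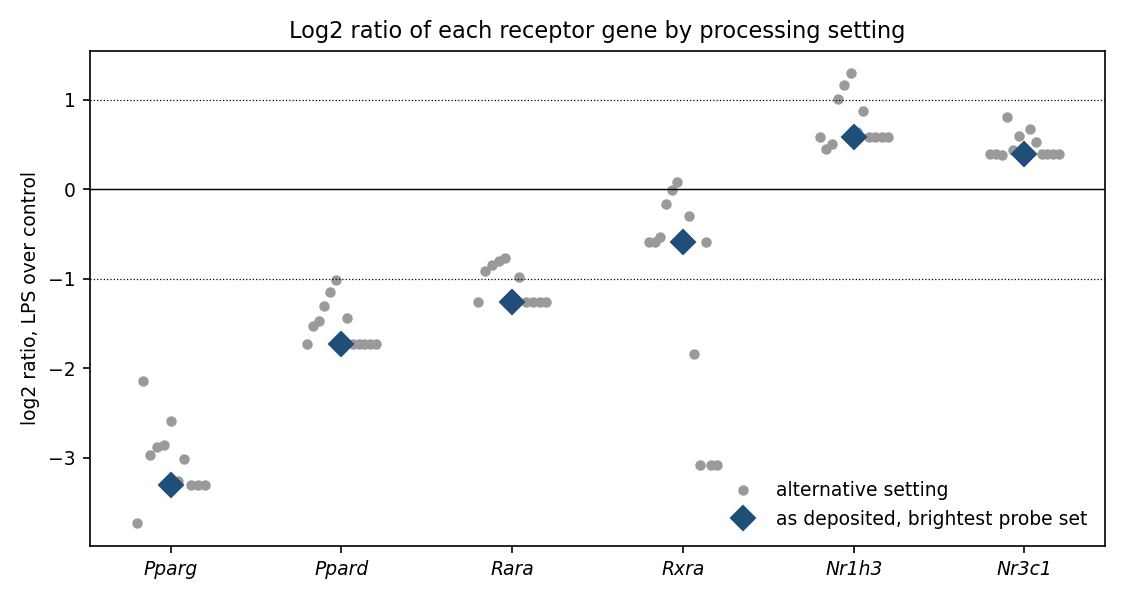
Log2 ratio (LPS over control) of the 6 measured receptor genes as deposited (blue diamonds) and under each alternative setting that gave a value (grey points). Dotted lines mark 2-fold. Pparg stays below -2 and Ppard below -1 throughout, Nr1h3 and Nr3c1 stay above 0, and Rxra spans -3.08 to 0.08.

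Other members of the receptor superfamily and related genes were listed for comparison. As background for each list, 26.2% of all measured genes were at least 2-fold lower and 8.22% higher as deposited, and 65.5% lay within 2-fold. These shares were 15.3% lower and 13.1% higher after median centring, 15.6% and 11.7% after quantile normalization, and 13.2% and 13.3% after loess. The lists are short, and no list's share is set apart from this background. Of 16 further ligand-sensing receptors, 14 had a probe set and 5 were measured, with 3 at least 2-fold lower and 0 higher (median -1.41), and 2 lower after median centring. Rxrb, which encodes a second RXR, was 2.65-fold lower, from 369 to 139. The thyroid hormone receptor gene Thra was 3.55-fold lower, from 215 to 60.5. The estrogen receptor gene Esr1 was at least 5.12-fold lower, from 136 to 24.4, although its other measured probe set gave a log2 ratio of -0.58. The other two measured were Thrb at -0.93 and Rarg at -0.29, the latter positive once centred on the median, quantile normalized or loess-corrected. The remaining 9, among them Ppara with 12.6 and 13.3, were under the floor on both arrays.

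Of 25 orphan and clock-linked receptors, 14 were measured, 4 at least 2-fold lower and 1 higher (median -0.21), or 3 lower and 1 higher after median centring, beside 26.2% and 8.22% of all measured genes as deposited. The sign of the list's median depended on the scaling: it was 0.21 after median centring, 0.27 after quantile normalization, 0.29 after loess and 0.08 with the poly-A controls as scale. The lower ones were Rora, Nr2c2, Nr1d2 and Nr2f6. Rora, an activator in the circadian clock, was at least 9.12-fold lower (243 to 25.3), with 6 probe sets between -3.19 and -1.21 on the log2 scale. Nr2c2 was 6.77-fold lower, from 834 to 123. The clock repressor gene Nr1d2 was 6.18-fold lower, from 1754 to 284, while its relative Nr1d1 was under both floors at 28.6 and 6.04. Nr4a3, an immediate-early receptor gene, was the only one past 2-fold on the higher side, at least 6.91-fold, from 2.61, under the floor, to 242. Its relative Nr4a1 read 118 and 85.4, and its log2 ratio of -0.46 was positive with quantile normalization and with loess.

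Coregulators went both ways. Of 12 measured corepressor genes, 4 were at least 2-fold lower and 2 higher (median -0.17), or 2 and 2 after median centring and 1 and 2 after loess. Over all measured genes, 26.2% were lower and 8.22% higher as deposited, and 15.3% and 13.1% after median centring. The list's median was 0.26 after median centring, 0.13 after loess and 0.12 with the poly-A controls as scale, so its sign depended on the scaling. Tbl1xr1, which encodes a subunit of the NCoR complex, was 5.76-fold lower, from 1095 to 190, and its 5 measured probe sets ran from -2.53 to -1.37. Gps2, another subunit of that complex, was 2.75-fold lower, from 297 to 108. Hdac3, its deacetylase, read 489 and 352, 1.39-fold lower. The deacetylase gene Hdac1 was 2.93-fold higher, from 1044 to 3056.

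Of 16 measured coactivator genes, 3 were at least 2-fold lower and 4 higher (median 0.22), or 3 and 5 after median centring. The shares of all measured genes were 26.2% lower and 8.22% higher as deposited, and 15.3% and 13.1% after median centring. Ncoa4, best known as the receptor that carries ferritin to lysosomes, was 7.49-fold lower, from 5382 to 718. Ncoa2, a p160 coactivator gene, was 5.47-fold lower, from 1078 to 197, but its 3 measured probe sets ranged from -2.45 to 0.58. Ncoa7 was 3.85-fold higher, from 463 to 1781, with its other measured probe set at -1.09. The third lower gene was Ncoa3, at -1.81 with its other probe set at -0.16. The 4 higher ones were Ncoa7, Ppargc1b (3.12-fold), Ncoa5 (2.94-fold) and Kat2b (2.39-fold).

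Genes known as LXR targets mostly lay within 2-fold. Of 19 listed, 18 were measured, and 4 were at least 2-fold lower and 0 higher, beside 26.2% and 8.22% of all measured genes. Of the 18 ratios 17 were negative, as were 71.1% over all measured genes, and their median was -0.75 beside -0.42 over all. After median centring 2 were lower and the median was -0.33. The cholesterol efflux genes Abca1 (5690 to 3603, a log2 ratio of -0.66) and Abcg1 (3165 to 1784, -0.83) lay within 2-fold, as did the lipogenic regulator gene Srebf1 (654 to 482). The 4 past 2-fold were the desaturase genes Scd2 (4353 to 610, 7.13-fold) and Scd1 (1161 to 558, 2.08-fold), Acsl3 (412 to 59.6, 6.92-fold, with its 3 probe sets from -2.86 to -0.67) and Cd5l (2.06-fold). Apoc1, with 20.3, under the floor, and 35.2, was the only gene with a positive ratio (0.01).

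PPAR target genes also lay mostly within 2-fold. Of 15 measured genes, 5 were at least 2-fold lower and 0 higher (median -0.73), or 3 lower after median centring, with a median of -0.31, and 2 lower after quantile normalization and after loess. The 10 of 15 genes within 2-fold as deposited are a share near the 65.5% of all measured genes. Of all measured genes, 26.2% were lower and 8.22% higher as deposited. The fatty acid uptake and transport genes Cd36 (4109 to 2575, a log2 ratio of -0.67) and Fabp4 (1519 to 936, -0.70) lay within 2-fold. Lpl, which encodes lipoprotein lipase and stands on both target lists, had 10781 and 10517. The genes past 2-fold were the thioesterase genes Acot2 (325 to 73.4, 4.42-fold) and Acot1 (at least 2.21-fold), the dehydrogenase gene Acadm (2163 to 599, 3.61-fold), Klf4 (342 to 126, 2.71-fold) and Angptl4 (66.4 to 2.75, at least 2.49-fold). Acadl had the largest ratio in the other direction, at 0.16.

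Glucocorticoid receptor targets were spread the widest. Of 15 measured genes, 8 were at least 2-fold lower and 4 higher (median -1.07), or 6 and 4 after median centring, beside 26.2% and 8.22% of all measured genes as deposited. After quantile normalization and after loess they were 4 and 4, so that the larger number of lower genes depended on the scaling. The list's median was -0.63 and -0.62 there, and -0.13 with plain probe sets alone. Tsc22d3, which encodes the leucine zipper protein GILZ, was 34.0-fold lower, from 2266 to 66.7, but by log2 ratio its 4 measured probe sets lay anywhere between -5.09 and -0.12. The clock gene Per1 was 3.39-fold lower, from 114 to 33.5. Fkbp5, the immunophilin gene widely used as a readout of this receptor, had 223 and 210, a ratio of -0.09 that turns positive in 4 of the 5 scalings. The 4 higher genes were Lcn2 (at least 158-fold), Dusp1 (35.7-fold, from 217 to 7750), Nfkbia (3.22-fold) and Errfi1 (2.34-fold). Several of these genes also respond to inflammatory signals, so the list is not a readout of this receptor alone.

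Few retinoid and vitamin D targets were measurable. Of 12 listed retinoic acid targets, 3 were measured: Dhrs3, a retinaldehyde reductase gene, was 5.18-fold lower (3422 to 661), Tgm2, the transglutaminase gene, was 4.30-fold higher (503 to 2161), and Cyp26b1 read 34.97, under the floor, and 33.2. Of 10 vitamin D targets, 5 were measured, with 2 at least 2-fold lower and 1 higher. Over all measured genes, 26.2% were lower and 8.22% higher. Thbd, which encodes thrombomodulin, was 7.10-fold lower (227 to 31.9), the transporter gene Slc37a2 5.93-fold lower (1553 to 262), and the cell cycle inhibitor gene Cdkn1a 4.27-fold higher (1659 to 7082). Cyp24a1 and Cyp27b1, the enzymes that degrade and make active vitamin D, were under both floors, with 15.0 and 10.9, and 2.09 and 6.89.

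Of the measured genes of enzymes and carriers that make, remove or supply ligands, 5 of 10 lay within 2-fold and single ones stood far apart in either direction. Of 24 listed genes of ligand supply, 10 were measured, 3 at least 2-fold lower and 2 higher (median -0.24), or 2 and 3 after median centring, beside 26.2% and 8.22% of all measured genes as deposited. The sign of the list's median depended on the scaling, with 0.19 after median centring, 0.18 after quantile normalization, 0.12 after loess and 0.05 with the poly-A controls as scale. Ch25h, which makes the oxysterol 25-hydroxycholesterol, was 30.5-fold higher, from 42.4 to 1293. Cyp27a1, which makes another oxysterol that LXRs bind, was 6.25-fold lower, from 656 to 105. Ptgs2, the inducible cyclooxygenase gene, was at least 82.3-fold higher, from 3.67, under the floor, to 2886, and its other probe set gave 7.92 on the log2 scale. Hpgds, the prostaglandin D synthase gene, and Rdh10, a retinol dehydrogenase gene, were the other two lower ones, at -2.01 and -1.09.

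**Figure D4:**
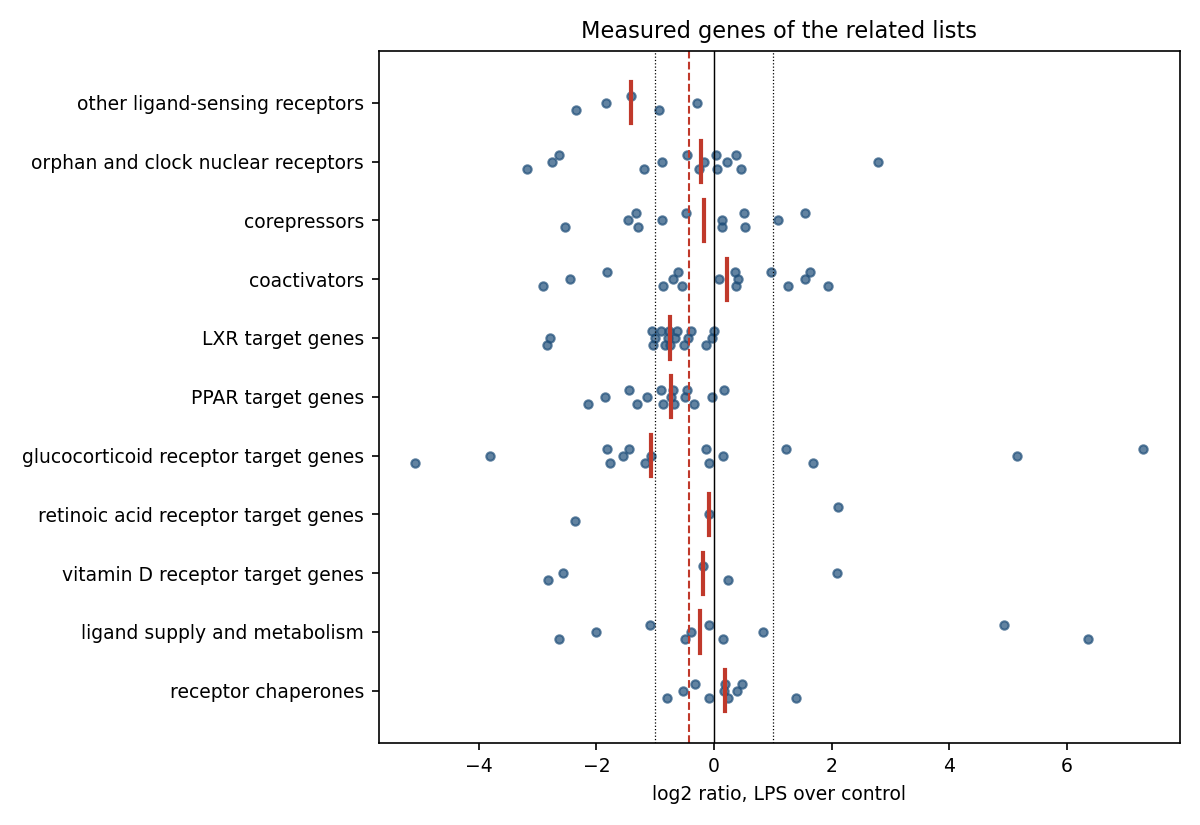
Log2 ratio (LPS over control) of the measured genes of 11 related lists, 1 point per gene, with the list's median as a red bar, the median of all measured genes (-0.42) as a dashed line and dotted lines at 2-fold. LXR and PPAR target genes lie mostly between -1 and 0, and the glucocorticoid targets reach from -5.09 to 7.30.

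The labelled cell type was checked against its markers. All 10 macrophage markers were measured, with summed signals of 50824 without and 55412 with LPS. Single markers differed more than the sums: Fcgr1 was 4.02-fold and Cd14 2.59-fold higher, and the other 8 lay within 2-fold, Mrc1 at a log2 ratio of -0.93. Adipocytes also express Pparg, and of the 5 adipocyte markers with a probe set, 4 were under both floors, Adipoq at 4.41 and 10.1 among them, and Slc2a4 read 48.7 and 37.4; their summed signals were 58.2 and 54.9. All 7 T and NK cell markers and all 5 mast cell markers with a probe set were under both floors. The summed signals of 9 neutrophil markers were 826 and 804, with Mmp8 2.38-fold lower (435 to 183) and S100a8 within 2-fold (270 to 440). Those of 6 B cell markers were 221 and 115, of which Cd79b alone was past 2-fold, 3.11-fold lower (110 to 35.3). The sums of 6 dendritic cell markers were 143 and 171 and of 5 erythroid markers 131 and 135. Those of 8 stromal markers were 133 and 312, of which Pdgfrb alone was past 2-fold. Such sums add signals of different probe sets and are weighted by the brighter ones. The part of such cells in the receptor ratios was not tested.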

How the data were processed

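The authors deposited linear intensity values, 1 for each probe set on each array. MAS5 is the tool named in the submitters' processing notes; the sources used here state no version, scaling target or detection calls. Arrays were grouped by title, as 1 control and 1 LPS array. Of 45101 probe sets, 64 were array controls and 34945 had exactly 1 gene in the annotation of the platform. RefSeq names of GRCm38.p6 changed 0 symbols, and no genome build is named for the arrays.

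Ratios are log2 LPS minus log2 control, unscaled, with each array's median (the 50th percentile) as floor and genes counted at 2-fold or more. Python 3.11.15, numpy 2.4.6, pandas 2.3.3 and statsmodels 0.14.6 were used. Alternatives moved the floor to the 35th or 65th percentile, replaced it by a pseudocount of 16, applied 5 scalings (18 hybridization controls with a median log2 ratio of -0.05 and 24 poly-A controls with -0.29 among them; loess span 0.4), chose probe sets by other rules, or set the threshold to 1.5-fold or 3-fold. The ratio steps as deposited and with median centring were tested on simulated arrays. The other scalings, floors and probe set rules and the window search were not. Members and lists were chosen with earlier results of these data known. Besides the 9 genes, the text names the 3 genes of each list whose ratios were largest in size, the 1 gene that lay furthest on the side opposite to the list's median, 17 genes fixed by name, and the genes most like Pparg and Nr1h3. Where a count of 5 or fewer is spelled out, its genes were named after their values were seen. So were Ppara, Hnf4a, Adipoq, Slc2a4, Pdgfrb, Fcgr1, Cd14, Mrc1, Mmp8, S100a8 and Cd79b.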

Additional observations from a re-analysis of the deposited data

How the results depend on the processing

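The count of receptor genes at least 2-fold higher was 0 as deposited and 1 (Nr1h3) after median centring, quantile normalization and loess. The count at least 2-fold lower was 3 as deposited and between 2 and 4 in the alternatives; Rara left it in 4 of the 5 scalings and Rxra joined it by other probe sets. The median log2 ratio of the measured receptor genes was -0.93 as deposited. It came to -0.51 after median centring, -0.41 after quantile normalization, -0.34 after loess and -0.64 with the poly-A controls as scale. A floor at the 65th percentile, which loses Rara, gave -0.59, and so did a limit to genes that reach both floors, which loses Pparg. It was -1.50 with the median of the probe sets and with the probe set of highest control signal or highest signal on either array (both chosen after seeing the data), which bring Rxra to -1.84 or -3.08, and -1.73 with plain probe sets alone, which leave 3 of the genes. Its sign was negative in all 13 of these settings. Pparg (from -3.73 to -2.14), Ppard (from -1.73 to -1.01), Nr3c1 (from 0.38 to 0.81) and Nr1h3 (from 0.45 to 1.30) kept their sign in every setting that gave a value. For Pparg and Nr1h3, each with a single probe set, the probe set rules could only return the same ratio or none. Of the related lists, the median changed sign in 7 of 13 settings for vitamin D targets and 5 for retinoic acid targets. It did so in 4 for orphan receptors and for ligand supply, 3 for corepressors and 1 for coactivators. In none did it change for LXR, PPAR and glucocorticoid targets, the further ligand-sensing receptors and the chaperones. Signals near the floor limit Rara and Vdr, and no paired analysis was possible because each group has 1 array.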

Other observations

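Chaperones that hold steroid receptors in a ligand-ready state mostly lay within 2-fold. Of 12 listed, 10 were measured, and 9 lay within 2-fold, beside 65.5% of all measured genes. On the higher side 1 was past 2-fold and on the lower 0, beside 8.22% and 26.2% of all. The median log2 ratio was 0.18, beside -0.42 over all measured genes. Median centring left the counts the same and brought the list's median to 0.61. With plain probe sets alone, 2 were past 2-fold on the higher side. Stip1, the cochaperone gene that links the large heat shock proteins, was 2.62-fold higher, from 402 to 1052. Fkbp4, an immunophilin gene of the receptor complex, read 190 and 110, a log2 ratio of -0.79 with its 3 measured probe sets from -0.79 to -0.22. St13 read 2058 and 1429. Hsp90aa1, chosen after its values were seen, had 3399 and 4727, a ratio of 0.48 with all 3 of its probe sets positive.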
